A study of Mus musculus with 8 samples.

Results

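The collagen genes were followed through RNA-seq of 5 mouse pluripotent stem cell lines. They were taken as every gene whose symbol in the deposited tables is Col, a number, a lower-case a and a further number, which gave 43 of 22878 rows. By the type of chain they encode, 11 were fibrillar collagens, 6 were the type IV collagens of basement membranes and 26 were other collagens. These 26 comprised 6 beaded filament chains, 9 fibril-associated collagens (FACIT), 3 short-chain network collagens, 4 transmembrane collagens, 2 multiplexins, the anchoring fibril collagen Col7a1 and Col28a1. Of the 43, 27 reached a level of 1 in at least 1 library and 15 reached 10.

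The study compared R1, a mouse embryonic stem cell (ESC) line, with 4 lines of induced pluripotent stem cells (iPSCs). The iPSC lines were made from cells of 3 germ layers. Line 16-6 came from hematopoietic cells (mesoderm), line 32 from adipocyte progenitors (mesoderm), line S8 from epidermal cells (ectoderm) and line T2 from stomach lining cells (endoderm). There were 2 libraries of R1, 2 of 16-6 and 2 of 32, and 1 apiece of S8 and T2. All 4 iPSC lines were of the second generation: the donor cells were taken from 8-week-old mice grown wholly from iPSCs that carried doxycycline-inducible Oct4, Sox2, c-Myc and Klf4. Each tissue of origin was represented by 1 line. All 5 lines, R1 included, were grown on mitomycin C-treated embryonic fibroblasts of ICR mice as feeder cells, in medium with serum and leukemia inhibitory factor. Whether feeder cells were removed before RNA was isolated from the cell pellets is not given in the sources used here. In such bulk RNA, fewer cells of a type and less RNA per cell cannot be told apart. The labels give the tissue of every sample as embryo. The study's methods call the 2 libraries of a line biological replicates, while neither they nor the labels say whether these were separate cultures. A p-value measured the spread between those libraries. Over genes of low to moderate fragment counts, their variance was 1.7 times that of read sampling alone in R1, 1.17 in 16-6 and 1.53 in 32. How far separate cultures of a line would vary was not tested.

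Collagens are secreted or membrane proteins built from 3 chains that wind around each other along a repeat of glycine and 2 other residues. Fibrillar collagens are assembled into the cable-like fibrils of connective tissue and are made in bulk by fibroblasts and bone cells. Type IV collagens form the sheet-like network of basement membranes, and the remaining classes decorate fibrils, link them to membranes or form networks of their own.

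Levels are values in FPKM, fragments scaled to transcript length and to the mapped fragments of the library, all divided by 1 common constant, so that a value is a level per transcript length. The files' confidence limits implied a depth per library of 15.5 to 16.7 in units of 1000000 fragments. The study itself, however, counted several times more reads for S8 and T2 than for the other libraries. A smaller percentage of them mapped uniquely. The part of this sequencing difference in the comparisons of S8 and T2 with R1 was not tested. All 8 pluripotency markers listed, among them Pou5f1 (Oct4) and Nanog, were above 1 in every library, with a summed level of 2605 to 5305. The sums were lowest in 16-6 (2605 and 2669). Zfp42 (-1.92) and Esrrb (-1.04) were called lower in 16-6 than in R1, and Nanog (-1.05), Esrrb (-1.0) and Dppa5a (-1.22) lower in 16-6 than in 32. Against R1, Zfp42 was also lower in 32 (-1.02), S8 (-2.18) and T2 (-2.53), and Esrrb in S8 (-1.56) and T2 (-1.73). In S8 Nanog was lower (-1.11) and Utf1 higher (1.46) than in R1. The part of these markers in the collagen values was not tested. Differences are on the scale of log2(FPKM + 1), which understates the change of low genes. A gene was called where the adjusted p of limma was below 0.05 and the difference was at least 1 (2-fold on this scale). S8 and T2, having 1 library each, were assumed to vary like the replicated lines in their comparisons with R1.

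Collagen transcripts were most abundant in 16-6 and least abundant in 32. The summed level of the 43 genes was 914 and 960.1 in R1, 1887 and 1878 in 16-6, 173 and 169 in 32, 545 in S8 and 753 in T2. The 3 replicated lines did not overlap, and S8 and T2 lay between R1 and 32. Fibrillar collagens, summed, were at 504.5 and 538 in R1, 1309 and 1288 in 16-6, 60.0 and 59.0 in 32, 310.1 in S8 and 477 in T2. Type IV collagens were at 46.3 and 46.9 in R1, 141.2 and 141.1 in 16-6, 14.2 and 13.6 in 32, 38.2 in S8 and 61.9 in T2. The sum for type IV was thus above R1 in T2, whereas that for the fibrillar class was below it (with own totals 530.6 in T2 against 531.3 and 532.9 in R1). As a ratio of highest to lowest sum, the other collagens spanned a narrower range. They ran from 96.8 in a library of 32 to 449 in a library of 16-6. This class includes Col18a1, which lay between 77.2 and 124 in every library. The fibroblast markers listed, summed, ran from 52.4 in 32 to 1011 in 16-6, and their part in these differences was not tested. The makeup of the collagen total differed among lines. Fibrillar chains were 69.4% and 68.6% of it in 16-6, 55.2% and 56.0% in R1 and 56.9% in S8. They were 63.3% in T2 and 34.6% and 34.8% in 32. Col18a1 alone, however, held 80.6 and 77.2 of the totals of 173 and 169 in 32. The shares and ranges were not computed without this gene.

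**Figure D1:**
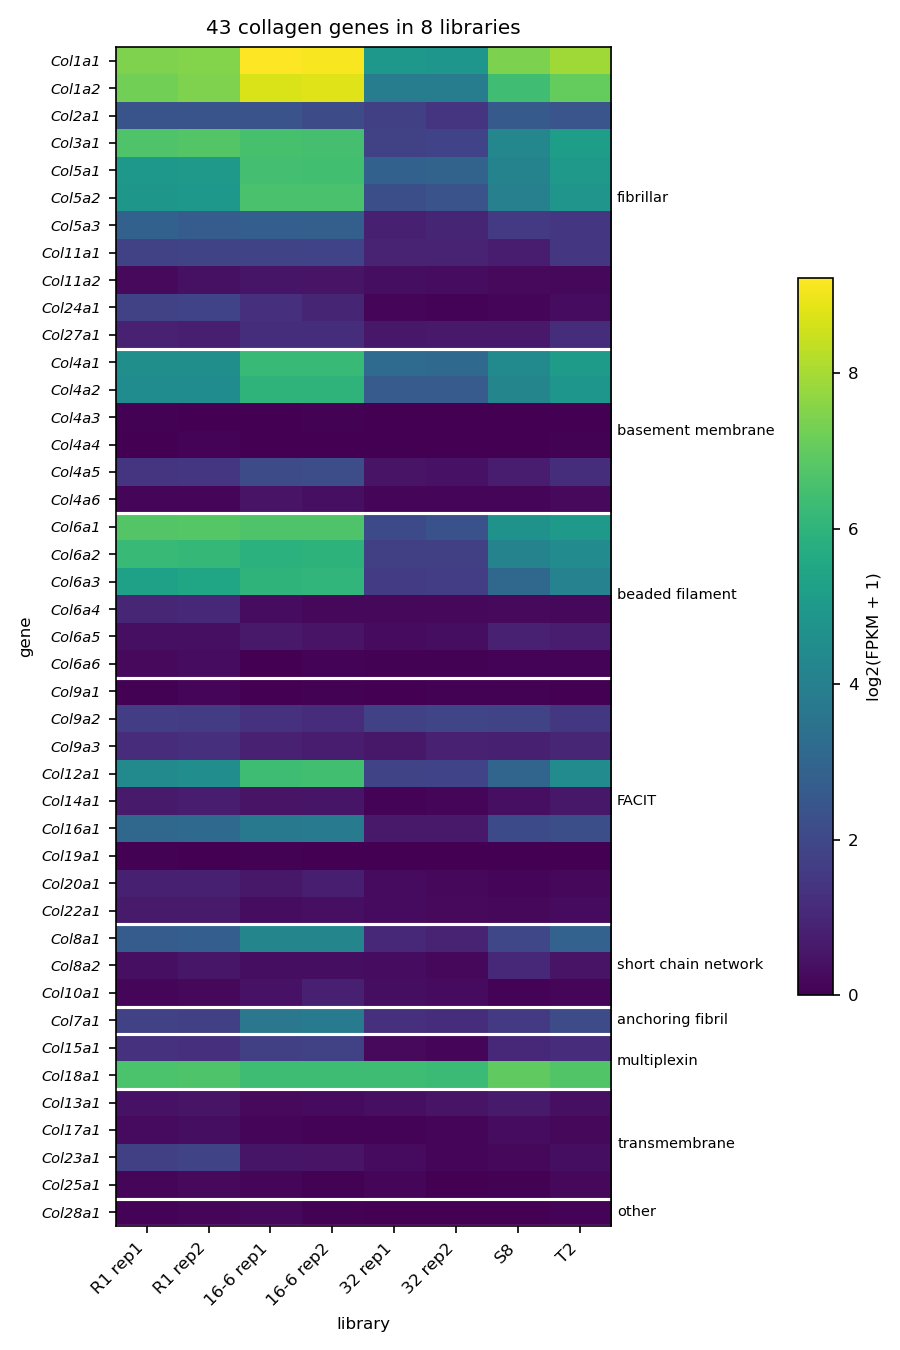
Levels of the 43 collagen genes as log2(FPKM + 1) on a colour scale from dark (0) to yellow (highest), with genes in rows by class and the 8 libraries in columns. Both columns of 32 are darker than the rest for Col1a1, Col3a1, Col4a1 and Col6a1, while Col18a1 keeps nearly the same colour, its FPKM lying between 77.2 and 124.

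**Figure D2:**
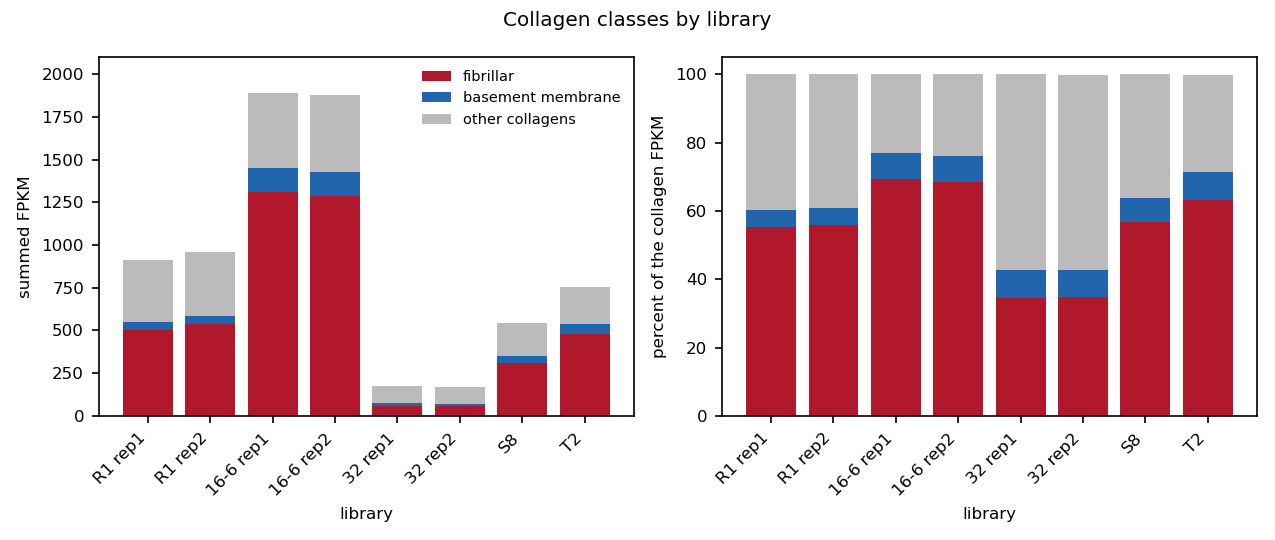
Summed FPKM of fibrillar, basement membrane (type IV) and other collagens in each of the 8 libraries as stacked bars (left) and as a percent of the collagen sum (right). The fibrillar sum ranges from 59.0 in a library of 32 to 1309 in a library of 16-6, and its share from 34.6% to 69.4%.

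Collagens were called in each comparison with R1, and the direction differed between 16-6 and the other lines. In 16-6, 10 of the 27 tested collagens differed from R1, 9 higher and 1 lower, where 7.11% of all 13693 tested genes were called (3.58% higher and 3.53% lower). At an unadjusted p below 0.05, 14 collagens were higher and 8 lower in 16-6. In 32, 17 of 27 were lower and 0 were higher, where 9.77% of all genes were called (1.54% higher and 8.23% lower). By limma at an unadjusted p below 0.05, 25 were lower and 0 higher in 32. In S8, 10 of 27 were called, all lower, beside 6.93% of all genes called higher and 9.74% called lower, or 16.7% in all. T2 had 7 of 27 called, all lower, beside 3.95% of all genes called higher and 6.54% called lower, or 10.5% in all. At an unadjusted p below 0.05, 2 collagens were higher and 20 lower in S8, and 5 were higher and 12 lower in T2. Even at an adjusted p below 0.05 without the fold limit, 55.6% to 66.7% of all genes were called against R1. Between 16-6 and 32 directly, 18 of 27 were called, all higher in 16-6, where 10.3% of all genes were called, 9.22% higher and 1.09% lower. Among all 5 lines at once, 21 of 27 differed by limma's moderated F, beside 34.5% of all genes. The 27 had to reach a level of 1 somewhere, so a gene high in 1 line only passed through that line, and these shares describe the tested genes rather than all 43.

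By class, fibrillar and type IV genes were both among those called in 16-6 and 32. In 32, 7 of 10 fibrillar, 2 of 3 type IV and 8 of 14 other collagens were lower than in R1. In 16-6 the numbers higher than R1 were 4 of 10, 2 of 3 and 3 of 14. S8 had 4 of 10 fibrillar and 6 of 14 other collagens called lower, and T2 had 3 of 10 and 4 of 14. None of the 3 type IV genes was called in S8 or T2 by limma. Their unadjusted p was below 0.05 for 3 lower genes in S8 and for 2 higher and 1 lower gene in T2. The median difference over the 27 collagens was 0.41 in 16-6, -1.74 in 32, -0.78 in S8 and -0.17 in T2, where the median over all tested genes was between -0.03 and -0.02.

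**Figure D3:**
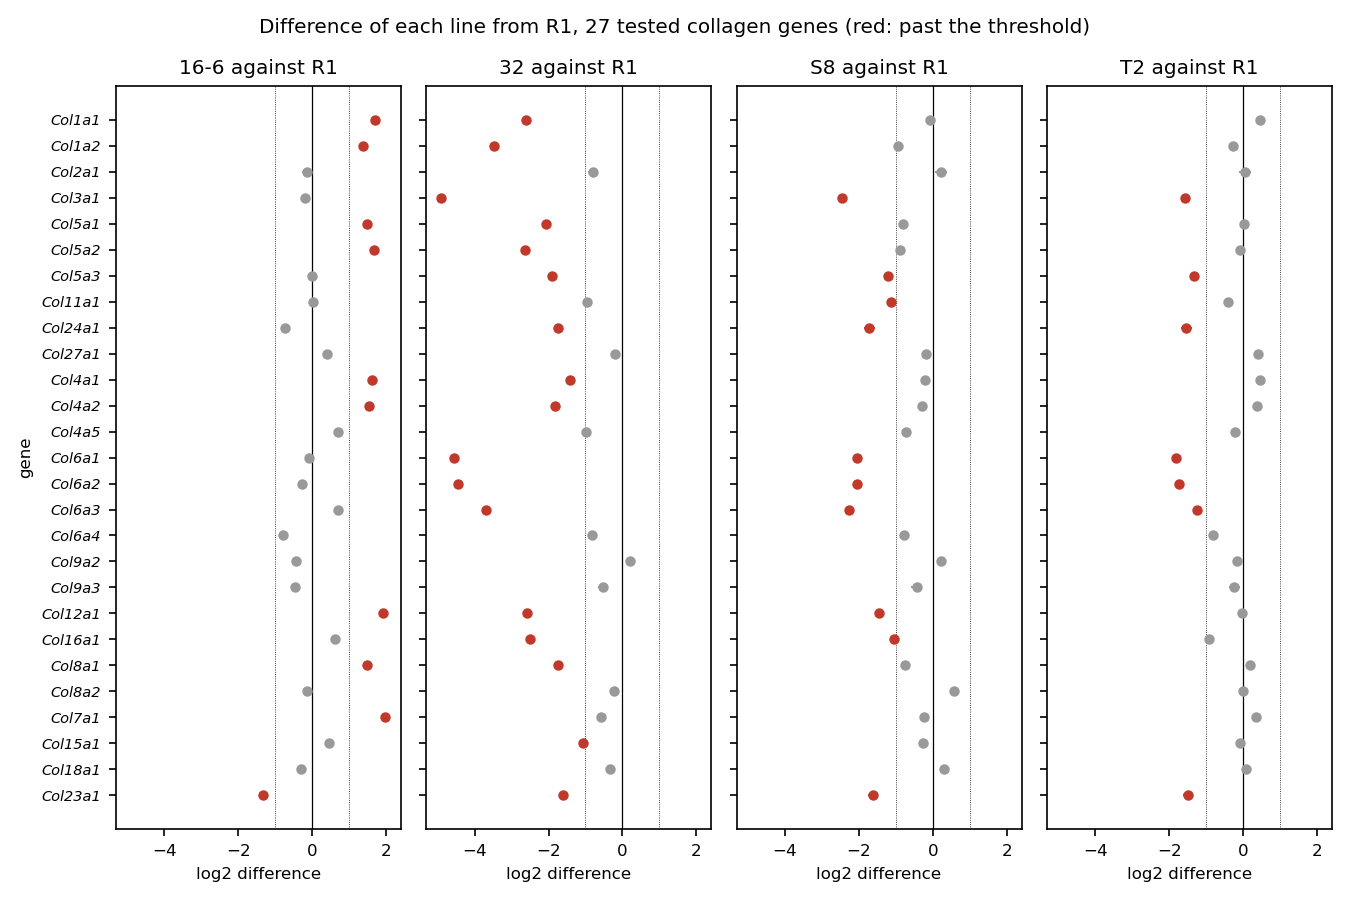
Difference from R1 of each of the 27 tested collagen genes in 16-6, 32, S8 and T2, on the log2(FPKM + 1) scale, with bars for the standard error (mostly within the point), red points for called genes and dotted lines at the 2-fold limits. In 32 the 17 called genes all lie below 0, from -4.91 for Col3a1 to -1.08 for Col15a1, and in 16-6 the called genes lie above 0 except Col23a1 at -1.32.

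Type I collagen, whose chains Col1a1 and Col1a2 make up the main fibril of bone, skin and tendon, was the most abundant collagen, by its Col1a1 chain, in R1, 16-6, S8 and T2. Col1a1 (chr11:94797584-94813170 in mm9, the build of the files) had a level of 174 and 180.1 in R1, 599.8 and 566.5 in 16-6, 29.1 and 27.8 in 32, 167 in S8 and 243 in T2. The 16-6 libraries were the highest and the 32 libraries the lowest, with no overlap. Col1a1 was higher in 16-6 than in R1 by 1.71 ± 0.05 (SE, adjusted p = 8.03e-05), a 3.29-fold ratio of levels, and lower in 32 with a difference of -2.60 ± 0.05 (adjusted p = 1.12e-05), a 6.24-fold ratio. S8 and R1 were neighbours in the order, with a difference of -0.08 ± 0.06 that did not pass the test (adjusted p = 0.248), and T2 differed from R1 by 0.45, short of 2-fold. Col1a2 (chr6:4455697-4491543) followed the same order at the extremes, with 152.5 and 173 in R1, 418 and 436 in 16-6, 13.6 and 13.7 in 32, 84.2 in S8 and 132.5 in T2. Its difference from R1 was 1.39 ± 0.07 in 16-6 (adjusted p = 0.000189) and -3.48 ± 0.07 in 32 (adjusted p = 1.29e-05).

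The minor chains of the type I fibril moved with it. Col5a1, a chain of the type V collagen that helps to start fibrils and set their width, was at 29.6 and 30.7 in R1, 87.4 and 84.7 in 16-6, 6.29 and 6.59 in 32, 16.6 in S8 and 30.5 in T2. Col5a2, its partner chain, was at 28.8 and 29.5 in R1, 94.6 and 95.8 in 16-6, 3.62 and 4.10 in 32, 15.2 in S8 and 27.2 in T2. Both genes were higher in 16-6, by 1.48 and 1.68, and lower in 32, by differences of -2.07 and -2.63, and both were within 0.10 of R1 in T2. The third type V chain, Col5a3, differed from them in 16-6. It lay between 5.41 and 6.36 in R1 and between 5.74 and 5.98 in 16-6, with a difference of 0.00 (adjusted p = 0.993), and was lower in 32 (-1.90), S8 (-1.20) and T2 (-1.32).

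Type III collagen, the fibrillar collagen of distensible tissues such as vessel walls, showed the largest difference of all 27 collagens between 32 and R1. Col3a1 (chr1:45368383-45406551) was at 103 and 109 in R1, 93.2 and 90.2 in 16-6, 2.49 and 2.61 in 32, 18.5 in S8 and 34.7 in T2. These levels stand for about 5759 and 6503 fragments in R1 and 127 and 139 in 32. R1 and 16-6 were close (-0.20 ± 0.05, adjusted p = 0.0179, not called), and the other 3 lines were well below both. The difference from R1 was -4.91 ± 0.05 in 32 (adjusted p = 3.57e-06), a 41.5-fold ratio of levels, -2.45 ± 0.06 in S8 (adjusted p = 4.40e-05) and -1.58 ± 0.06 in T2 (adjusted p = 0.000135). Col3a1 was therefore not high in 16-6 in the way type I collagen was: the ratio of Col3a1 to Col1a1 was 0.588 and 0.603 in R1, 0.155 and 0.159 in 16-6, 0.0857 and 0.0939 in 32, 0.111 in S8 and 0.143 in T2.

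The cartilage and developmental fibrillar collagens were low. Col2a1, the main collagen of cartilage, lay between 1.71 in a library of 32 and 5.07 in S8 and was called in none of the 5 comparisons. Its differences from R1 ran from -0.80 in 32 to 0.21 in S8, and it was called among all 5 lines (adjusted p = 0.00748). Col11a1, a minor chain of cartilage fibrils that also occurs with type V, lay between 0.648 in S8 and 2.69 in 16-6 and was called lower in S8 (-1.13). Col24a1 was at 2.53 and 2.66 in R1 and fell to 0.0602 to 0.234 in 32, S8 and T2, with differences of -1.74, -1.72 and -1.54, and was called higher in 16-6 than in 32 by 1.00 (adjusted p = 0.0017). The levels of Col24a1 in 32, S8 and T2 stand for 6 to 24 fragments. The call between 16-6 and 32 was lost without 16-6 replicate 1 (0.85) and without 32 replicate 2 (0.98). Col27a1 lay between 0.501 and 1.34 and was not called in any of the 5 comparisons.

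Type IV collagen is the network-forming collagen of basement membranes, and its genes sit in head-to-head pairs. Col4a1 (chr8:11198423-11312826) and Col4a2 (chr8:11312829-11449287) encode the chains found in nearly all basement membranes. Col4a1 was at 23.2 and 23.5 in R1, 73.8 and 73.8 in 16-6, 8.28 and 7.93 in 32, 20.2 in S8 and 32.5 in T2. Col4a2 was at 21.2 and 21.5 in R1, 63.6 and 63.4 in 16-6, 5.34 and 5.21 in 32, 17.3 in S8 and 27.9 in T2. Both chains had the same order of lines, 16-6 above T2, R1, S8 and 32. Col4a1 was higher in 16-6 by 1.62 ± 0.04 (adjusted p = 6.43e-05) and lower in 32 with a difference of -1.42 ± 0.04 (adjusted p = 2.54e-05), and Col4a2 by 1.53 and -1.83. In S8 the differences were -0.20 and -0.29, and in T2 0.46 and 0.37, all short of 2-fold.

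The other pairs were low or nearly silent. Col4a5, on the X chromosome and part of the kidney, lung and eye networks, was at 1.71 and 1.72 in R1, 3.37 and 3.51 in 16-6, 0.388 and 0.374 in 32, 0.639 in S8 and 1.32 in T2. It was called between 16-6 and 32 (1.69, adjusted p = 4.83e-05). Its differences from R1, 0.71 in 16-6 and -0.98 in 32, fell short of the limit on the log2(FPKM + 1) scale. As ratios of levels, 16-6 was 2.01-fold above R1, and R1 was 4.51-fold above 32. Col4a6 was at 0.106 and 0.126 in R1, 0.404 and 0.316 in 16-6, 0.131 and 0.112 in 32, 0.128 in S8 and 0.187 in T2. Col4a3 was at 0.0258 and 0 in R1, 0.0252 and 0.0257 in 16-6, 0 and 0.00887 in 32, 0 in S8 and 0.0158 in T2. Col4a4 was at 0.0108 and 0.0516 in R1, 0.0107 and 0.0216 in 16-6, 0.0120 and 0 in 32, 0.00954 in S8 and 0.0269 in T2. These 3 genes stayed below 1 in all 8 libraries and were not tested, and the levels of Col4a3 and Col4a4 stand for at most 3 and 5 fragments in a library.

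Type VI collagen forms beaded microfilaments around cells and is a common product of fibroblasts. Col6a1 was at 107 and 109 in R1, 102.5 and 102 in 16-6, 3.25 and 3.998 in 32, 25.4 in S8 and 29.99 in T2. Col6a2 was at 73.5 and 70.7 in R1, 58.3 and 61.3 in 16-6, 2.37 and 2.35 in 32, 16.6 in S8 and 20.9 in T2. For these 2 chains R1 was the highest line and 16-6 was next, with differences of -0.08 and -0.27 that were not called. In 32 they were lower by 29.7-fold and 30.5-fold in level (differences of -4.56 and -4.44, adjusted p = 1.12e-05 and 3.57e-06), and they were also lower in S8 (-2.05 and -2.06) and T2 (-1.81 and -1.74). Col6a3, the longest of these chains, was at 37.7 and 41.8 in R1, 63.7 and 66.7 in 16-6, 2.10 and 2.21 in 32, 7.37 in S8 and 16.0 in T2. It was lower in 32, S8 and T2 (-3.69, -2.28 and -1.26), and its difference of 0.70 in 16-6 was short of 2-fold. Col6a4 was near 1 in R1 (0.985 and 1.10) and at most 0.241 in the iPSC lines. Its differences of -0.83 to -0.78 were not called on the log2(FPKM + 1) scale. As ratios of levels, R1 was 5.49-fold above 16-6, 7.14-fold above 32, 5.53-fold above S8 and 6.83-fold above T2.

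Of the FACIT collagens, which lie on the surface of fibrils, Col12a1 stood with type I. Col12a1 was at 20.4 and 22.0 in R1, 81.5 and 85.4 in 16-6, 2.74 and 2.62 in 32, 7.03 in S8 and 20.7 in T2. It was 3.94-fold higher in 16-6 than in R1 (1.93, adjusted p = 9.32e-05), 31.1-fold higher in 16-6 than in 32 (4.52, adjusted p = 2.38e-06) and lower in S8 than in R1 (-1.46). In T2 it was within 0.03 of R1 (adjusted p = 0.754). Col16a1 was at 7.58 and 8.02 in R1, 12.4 and 12.9 in 16-6, 0.546 and 0.533 in 32, 3.21 in S8 and 3.66 in T2, and was called lower in 32 (-2.51) and S8 (-1.06). Col9a2 and Col9a3, chains of cartilage type IX collagen, lay between 0.502 and 2.79 and were called in none of the 5 comparisons.

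Col7a1, the collagen of the anchoring fibrils beneath epidermis, was one of the genes higher in 16-6. It was at 2.55 and 2.37 in R1, 11.8 and 13.3 in 16-6, 1.34 and 1.32 in 32, 1.93 in S8 and 3.38 in T2. The 16-6 libraries stood apart, 5.10-fold above R1 in level (1.97 ± 0.08, adjusted p = 0.000135). S8, the line made from epidermal cells, had a difference from R1 of -0.24 (adjusted p = 0.0806), not called. Col8a1, a short-chain collagen of vessel walls and the cornea, was at 5.37 and 5.78 in R1, 17.3 and 17.4 in 16-6, 1.09 and 0.866 in 32, 2.91 in S8 and 6.45 in T2. It was called higher in 16-6 (1.48) and lower in 32 (-1.74). Its relative Col8a2 was highest in S8 (1.09, against 0.158 to 0.488 in the 7 other libraries), with a difference of 0.58 from R1 that was not called.

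The multiplexins differed from each other. Col18a1, a basement membrane proteoglycan core whose C-terminal fragment is endostatin, had the smallest ratio of highest to lowest level among the 15 collagens that reached 10. Its level was 97.3 and 103 in R1, 81.5 and 81.7 in 16-6, 80.6 and 77.2 in 32, 124 in S8 and 106 in T2. S8 was highest, and 16-6 and 32 were neighbours with a difference of 0.05 (adjusted p = 0.393). With each library divided by its own total, Col18a1 was instead highest in T2 (118 against 115 in S8), and 16-6 (82.2 and 84.0) lay above 32 (64.0 and 63.5). None of its 4 differences from R1, which ran from -0.34 in 32 to 0.30 in S8, reached 2-fold. In 32 this gene made up most of the class of other collagens, whose sum was 99.3 and 96.8. Col15a1, the other multiplexin, was low, from 0.118 in 32 to 2.41 in 16-6, and was lower in 32 than in R1 by a difference of -1.08. Of the transmembrane collagens, Col23a1 alone reached 1: it was at 2.34 and 2.76 in R1 and between 0.119 and 0.448 in the iPSC libraries. On the log2(FPKM + 1) scale it was the only collagen called lower than R1 in all 4 iPSC lines (-1.32, -1.61, -1.63 and -1.5). That pattern was shown by 1.28% of all tested genes.

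Grouped by pattern, 2 sets of collagens recurred. The first set was higher in 16-6 and lower in 32 than in R1, and held 8 of the 27 genes: Col1a1, Col1a2, Col5a1, Col5a2, Col4a1, Col4a2, Col8a1 and Col12a1. Of all tested genes, 138 (1.01%) had this pattern. The second set was lower in 32, S8 and T2 alike and held 7 genes, Col3a1, Col5a3, Col24a1, Col6a1, Col6a2, Col6a3 and Col23a1, where 476 of all tested genes (3.48%) did so. These comparisons share the 2 R1 libraries. By order of the libraries, 16-6 was the highest line with no overlap for 14 of the 27 genes and 32 the lowest for 20, where 14.8% and 16.5% of all tested genes had such an order. R1 was highest for 7 genes (16.8% of all tested genes), S8 for Col18a1, Col2a1 and Col8a2 (26.5%), and 32 for 0 (14.6%). With own totals T2 took the place of S8 for Col18a1 and Col2a1.

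S8 and T2, with 1 library each, were not tested against each other, and their values are given side by side. T2 was above S8 for the type I chains (243 against 167 for Col1a1, 132.5 against 84.2 for Col1a2), for Col3a1 (34.7 against 18.5), and for Col4a1 (32.5 against 20.2). Col12a1 (20.7 against 7.03) and Col8a1 (6.45 against 2.91) had the widest ratios among the 15 collagens that reached 10. Col18a1 went the other way with the common constant, at 124 in S8 and 106 in T2, but not with own totals.

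The remaining 16 collagens did not reach 1 in any library, and their highest levels ran from 0.0258 for Col4a3 to 0.788. They were the FACIT genes Col14a1, Col19a1, Col20a1, Col22a1 and Col9a1, the type IV genes Col4a3, Col4a4 and Col4a6, the type VI genes Col6a5 and Col6a6, Col11a2, Col10a1, Col28a1, and the transmembrane collagens Col13a1, Col17a1 and Col25a1. Col17a1, a hemidesmosome protein of epidermis, and Col10a1, a product of hypertrophic cartilage, were thus among them. Of the 43 genes, 5 were listed at 0 in at least 1 library.

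Ratios were taken between chains of 1 molecule and between neighbouring genes, within each library. The ratio of Col4a1 to Col4a2 was 1.09 and 1.09 in R1, 1.16 and 1.17 in 16-6, 1.17 in S8 and 1.16 in T2, but 1.55 and 1.52 in 32. The ratio of Col1a1 to Col1a2 was 1.14 and 1.04 in R1, 1.44 and 1.30 in 16-6, 2.14 and 2.03 in 32, 1.98 in S8 and 1.83 in T2. That of Col6a1 to Col6a2 lay between 1.37 and 1.76 in all 8 libraries, its 2 libraries of 32 being 1.37 and 1.70. By contrast the ratio of Col3a1 to Col5a2, neighbours on chromosome 1 with 24624 bases between them and no other entry, was 3.57 and 3.69 in R1, 0.986 and 0.941 in 16-6, 0.689 and 0.636 in 32, 1.22 in S8 and 1.28 in T2. These ratios are a description and were not tested. Across classes, Col1a1 to Col4a1 was 7.47 to 8.28 in the 6 libraries of R1, 16-6, S8 and T2 and 3.51 and 3.50 in 32.

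**Figure D4:**
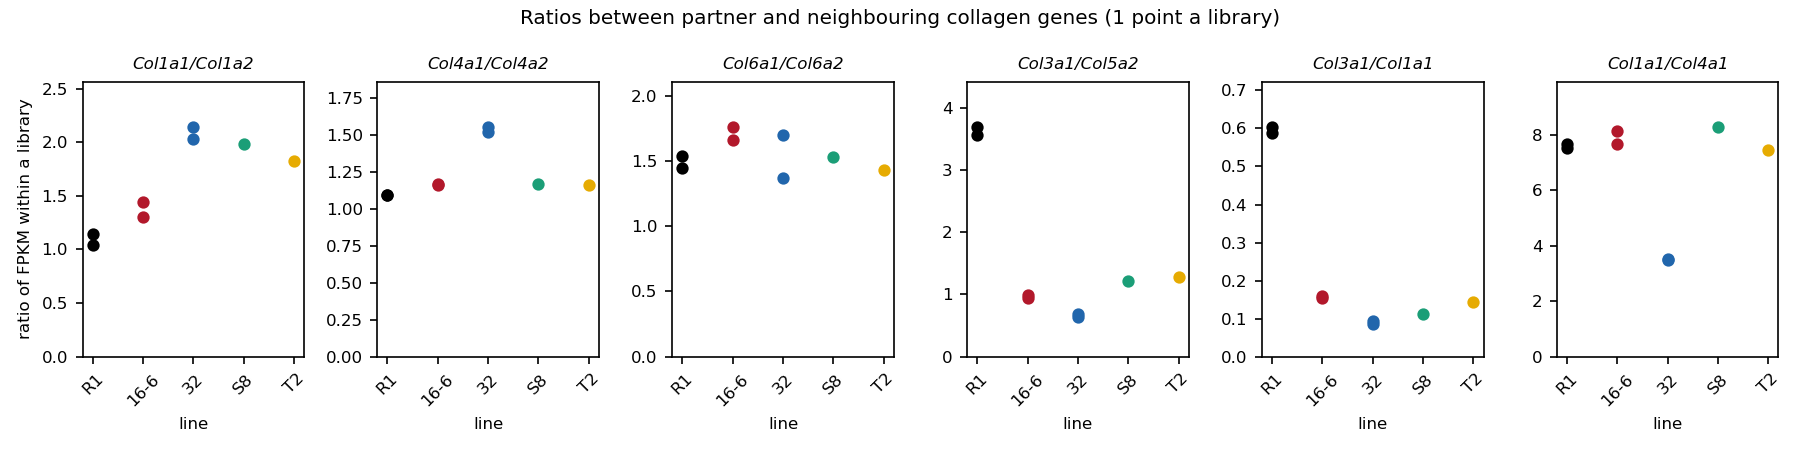
Ratio of the FPKM of 6 pairs of collagen genes, 1 panel a pair with its own axis from 0 and 1 point a library, by line. Col6a1 to Col6a2 stays between 1.37 and 1.76, whereas Col3a1 to Col5a2 runs from 0.636 in a library of 32 to 3.69 in a library of R1.

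Among neighbouring collagen genes on a chromosome, the distance was shortest for the head-to-head type IV pairs. Col4a1 and Col4a2 were 2 bases apart in mm9, Col4a4 and Col4a3 71 bases and Col4a6 and Col4a5 1342 bases. In RefSeq annotation of GRCm38.p6, a different build, the start sites of Col4a1 (position 11312826, minus strand) and Col4a2 (position 11312805, plus strand) on chromosome 8 put 22 bases in both transcripts. Promoter windows from RefSeq on GRCm38.p6, from 250 bases before to 50 after a start site, were found for 35 of the 43 collagen genes, in 38 windows. The words searched on both strands were TATAAA, found in 5 of the 38 windows (13.2%, against 13.6% of all 32851 windows), CCAAT, found in 13 (34.2%, against 37.4%), and GGGCGG, found in 23 (60.5%, against 35.7%). A match is a description of the letters and not evidence of a bound site.

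Stretches upstream of the start are printed below for a gene of each pattern: Col1a2 from the first set, Col3a1 from the second and Col18a1, which varied little, each with the 150 bases before the start. For the Col4a1 and Col4a2 pair the 30 bases from -50 to -21 relative to the Col4a2 start are given, which lie inside the annotated Col4a1 transcript. Capitals mark CCAAT in Col1a2, TATAAA in Col3a1, GGGCGG read on the other strand (CCGCCC) in Col18a1, and both CCGCCC and CCAAT in Col4a2. The coordinates are of GRCm38.p6, with Col18a1 on the minus strand and the others on the plus strand.
Col1a2, chr6:4505468-4505617: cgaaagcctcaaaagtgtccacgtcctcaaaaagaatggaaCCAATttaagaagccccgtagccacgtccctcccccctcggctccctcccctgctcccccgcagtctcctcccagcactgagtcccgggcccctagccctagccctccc
Col3a1, chr1:45311388-45311537: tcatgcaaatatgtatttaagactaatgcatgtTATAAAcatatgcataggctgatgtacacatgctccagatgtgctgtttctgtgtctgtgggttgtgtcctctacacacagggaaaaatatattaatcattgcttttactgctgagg
Col18a1, chr10:77166531-77166680: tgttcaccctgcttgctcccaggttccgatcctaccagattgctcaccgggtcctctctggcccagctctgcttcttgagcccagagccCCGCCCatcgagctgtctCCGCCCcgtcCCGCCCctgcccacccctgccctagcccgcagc
Col4a2, chr8:11312755-11312784: cgCCGCCCgaggagctccCCAATttgttgg

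Genes that modify and fold collagen were lower where called in 32, S8 and T2 and higher where called in 16-6. Over all tested genes, 8.23% were called lower in 32, 9.74% in S8 and 6.54% in T2. The shares called higher were 3.58% in 16-6 and 1.54% in 32. Of 10 tested genes of prolyl hydroxylation, which stabilises the helix, 5 were lower in 32, P4ha1 and P4ha2 were lower in S8, P4ha1 was lower in T2, and P4ha3 was higher in 16-6 (1.06). P4ha1, the main catalytic subunit, was at 43.8 and 43.6 in R1, 38.0 and 38.8 in 16-6, 9.22 and 9.45 in 32, 12.1 in S8 and 13.9 in T2. It was lower in 32, S8 and T2 by differences of -2.11, -1.77 and -1.59, and not called in 16-6 (-0.18). Of 4 tested genes of lysyl modification, Plod1 (-1.57) and Plod2 (-1.27) were lower in 32, Plod2 was lower in S8 (-1.37) and Plod1 was lower in T2 (-1.15). Of 10 folding and export genes, 6 were lower in 32, 2 were higher in 16-6 and Fkbp7 was lower in T2 (-1.07). Serpinh1, the collagen chaperone HSP47, was at 104 and 114 in R1, 275 and 282 in 16-6, 40.7 and 38.4 in 32, 69.4 in S8 and 86.2 in T2. Its differences were 1.35 in 16-6 (adjusted p = 0.000156) and -1.44 in 32 (adjusted p = 7.94e-05). None of the 10 was called in S8 by limma, where 6 had an unadjusted p below 0.05.

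Genes that trim procollagen, bind collagen or break it down were counted in the same way. The shares of all tested genes called were 7.11% in 16-6, 9.77% in 32, 16.7% in S8 and 10.5% in T2. Of 6 tested procollagen processing genes, Adamts2 and Bmp1 (both -2.26) were lower in 32 and Tll1 was higher in 16-6 (1.72). Among 7 tested receptors, Ddr2, Mrc2 and Itga2 were lower in 32 (-3.09, -2.29 and -1.45), Ddr2, Itga1 and Itga2 in S8, Ddr2 and Itga2 in T2, while Itgb1 (1.18) and Itga11 (1.03) were higher in 16-6 and Ddr1 was higher in T2 (1.04). Of 6 tested genes of collagen breakdown, 5 were lower in 32, among them the gelatinase Mmp2 (-3.15), and Mmp13, Mmp2 and Mmp9 were lower in both S8 and T2. In 16-6 Ctsk (1.57) and Mmp14 (1.05) were higher and Mmp13 was lower (-1.43).

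The partners of type IV collagen in basement membranes did not share its pattern throughout. Sparc, a collagen-binding glycoprotein, did: it was at 267 and 272 in R1, 613.5 and 588 in 16-6, 117 and 108 in 32, 177 in S8 and 218 in T2, with called differences of 1.15 in 16-6 and -1.25 in 32. Lama1, the laminin chain of early embryonic basement membranes, was at 8.71 and 8.76 in R1, 5.61 and 5.64 in 16-6, 16.3 and 15.8 in 32, 2.13 in S8 and 2.32 in T2. Lama1 was thus highest in 32, and lower in 16-6 than in 32 by a difference of -1.36 (adjusted p = 4.06e-05). Nid1, which joins laminin to type IV collagen, was lower in 32 (-1.13), S8 (-1.52) and T2 (-1.05). Of the 9 tested partners, 1 was called in 16-6, 2 in 32, 3 in S8 and 2 in T2. The matching shares of all tested genes were 7.11%, 9.77%, 16.7% and 10.5%.

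The sum of markers of fibroblasts, the feeder cell type, was highest in 16-6 and lowest in 32, like the fibrillar sum. In 32, S8 and T2 the marker sum was further below R1 than the fibrillar sum was. In 16-6 the fibrillar sum was further above R1 than the marker sum was. The 15 fibroblast markers listed, summed, were at 626 and 708 in R1, 969 and 1011 in 16-6, 52.4 and 54.6 in 32, 206 in S8 and 223 in T2. S100a4 (382 and 423 in 16-6, 127 and 207 in R1) and Thy1 carried the lead of 16-6 over R1 in this sum. None of the 15 was at 0 in a library other than 32 replicate 1, where Tcf21 and Meox2 were. Of 12 tested fibroblast markers, 11 were lower in 32, 8 in S8 and 8 in T2, and all 12 were higher in 16-6 than in 32. In 16-6 against R1, 4 were higher and 2 lower. Over all tested genes, 8.23% were lower in 32, 9.74% in S8 and 6.54% in T2. In 16-6, 3.58% were higher and 3.53% lower than in R1, and 9.22% were higher than in 32. Thy1, a surface glycoprotein of fibroblasts, was at 77.0 and 79.2 in R1, 226 and 219 in 16-6, 8.99 and 8.93 in 32, 65.3 in S8 and 69.2 in T2. Dcn, a proteoglycan that coats collagen fibrils, was at 216.5 and 204 in R1, 32.9 and 33.3 in 16-6, 0.605 and 0.890 in 32, 11.1 in S8 and 11.0 in T2. Thy1 was thus higher in 16-6 than in R1 (1.5), while Dcn (-2.63) and Lum (-2.72), a related proteoglycan, were lower. The part of feeder or other fibroblasts in the collagen differences was not tested.

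The other lists were lower in level. The 9 primitive endoderm markers, a cell type known for making type IV collagen, summed to 15.3 and 17.4 in R1, 13.9 and 13.8 in 16-6, 4.51 and 4.72 in 32, 5.80 in S8 and 8.06 in T2. Dab2 was the larger part of this in R1 and 16-6 but not in 32 (1.59 of 4.51 and 1.98 of 4.72), and Ttr was at 0 in all 8 libraries. The 6 endothelial markers summed to between 2.47 and 5.22 and none was at 0. The 7 chondrocyte markers were at 13.1 and 13.3 in R1, 5.78 and 5.67 in 16-6, 3.89 and 3.93 in 32, 4.99 in S8 and 5.50 in T2, and Matn1 was at 0 in 16-6 replicate 1. The part of these cell types in the collagen values was not tested.

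**Figure D5:**
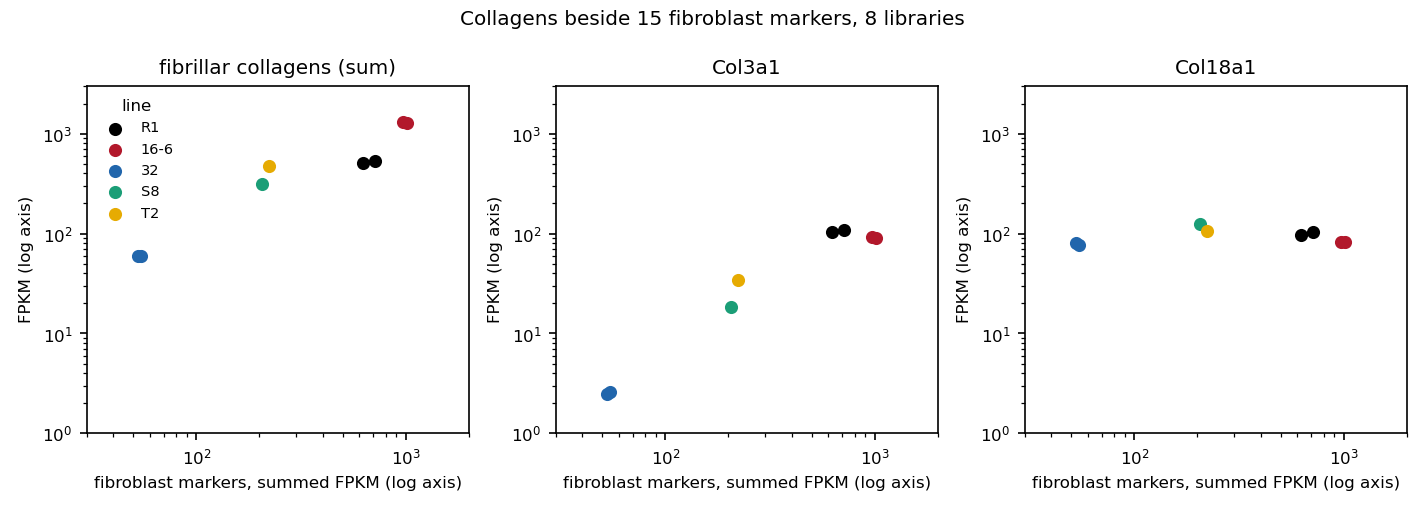
Summed FPKM of the fibrillar collagens, FPKM of Col3a1 and FPKM of Col18a1 (vertical, log axis) against the summed FPKM of 15 fibroblast markers (horizontal, log axis), 1 point a library coloured by line. From 32 to 16-6 the marker sum goes from 52.4 to 1011 and the fibrillar sum from 59.0 to 1309, while Col18a1 lies between 77.2 and 124 in all 8 libraries.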

How the data were processed

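RNA-seq of 8 libraries was analysed from the FPKM values per gene that the authors deposited, with their confidence limits. The authors mapped reads with TopHat 2.0.4 to UCSC genes of mm9 and estimated FPKM with Cufflinks, version 2.0.2 in the methods and 2.0.0 in the submitters' processing notes. All values were divided by 1 constant (12725.7), which brings the median library sum to 1000000. Fragments were estimated from the width of the confidence limits, as 80.8% to 82.3% of low genes gave whole numbers within 0.01. No per-sample column was left aside.

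Genes reaching 1 in at least 1 library (13693) were fitted with limma 3.58.1 (R 4.3.3; lmFit, eBayes with trend) on log2(FPKM + 1) over all 8 libraries in 5 groups, with 3 residual degrees of freedom and Benjamini-Hochberg adjustment over all tested genes. The fit was tested on simulated data. Collagens that reached 10 and all type IV genes are given in every library, the others by range and by their calls, and of each other list up to 4 called genes with the highest F, plus those in any count of 5 or fewer. The members and lists were chosen with earlier results of these data known. Alternatives were another pseudocount, filter, scaling, fold limit and set of libraries.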

Additional observations from a re-analysis of the deposited data

Results flagged for a closer look

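For 8 collagens the difference from R1 was called in both 16-6 and 32 with opposite signs. A call in the direct comparison of both lines was also required. Differences of opposite sign of at least 1 each already put 16-6 past the fold limit above 32. That call therefore adds no support. The 2 effects share the R1 libraries, so the test is that of 16-6 against 32. On the log2(FPKM + 1) scale 16-6 exceeded 32 by 4.31 for Col1a1 (1.71 in 16-6 and -2.60 in 32, relative to R1), 4.87 for Col1a2 (1.39 and -3.48), 3.55 for Col5a1 (1.48 and -2.07) and 4.31 for Col5a2 (1.68 and -2.63). The basement membrane chains had 3.04 for Col4a1 (1.62 and -1.42) and 3.36 for Col4a2 (1.53 and -1.83). The remaining genes had 4.52 for Col12a1 (1.93 and -2.59) and 3.22 for Col8a1 (1.48 and -1.74). The adjusted p of limma for 16-6 against 32 ran from 1.90e-06 to 1.11e-05, in genes chosen partly by it. Every library of 16-6 was above both libraries of R1, and every library of 32 below them, for these 8 genes.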

How the results depend on the processing

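No called difference of a collagen changed sign under an alternative that was run, and 929 of 936 alternative values of called differences kept their side of the threshold. The 7 that did not were, under quantile normalization, Col15a1 in 32 (-0.68), Col11a1, Col16a1 and Col5a3 in S8 (-0.87, -0.85 and -0.99) and Col24a1 in 16-6 against 32 (0.75), and the last also without 16-6 replicate 1 and without 32 replicate 2. The 62 values without the fold limit could not fail, since that setting only loosens the main call. With the filter in every library only 40 called differences were tested, and those dropped are not among the 936. Leaving out a library of a line outside a comparison does not change its difference. Nor do another filter, a fit without the trend, a fit of R1, 16-6 and 32 alone or the replicate block, where only the adjusted p can change. With a pseudocount of 0.1, 12 collagens were called in 16-6 (9 higher and 3 lower) and 21 in 32, all lower. S8 then had 13 (1 higher and 12 lower) and T2 had 9, all lower. Beside them, 12.3%, 16.5%, 23.2% and 16.1% of all genes were called. Without the fold limit, 22 collagens were called in 16-6 (14 higher and 8 lower), 22 in S8 and 16 in T2. The shares of all genes were 55.6%, 66.7% and 57.9%. Requiring a level of 1 in every library left 15 collagens to test, of which 11 were called in 32, 5 in S8, 4 in T2 and 13 among the 5 lines, where the fit of all libraries had 17, 10, 7 and 21. With that filter 6.73%, 15.3%, 8.55% and 31.7% of all genes were called. Leaving out each replicate in turn gave 10 calls throughout in 16-6, 17 in 32, 10 to 11 in S8, 7 in T2, 17 to 18 for 16-6 against 32 and 20 to 21 among the lines. Over all genes, a pseudocount of 0.1 raised the calls from 974 to 1690 in 16-6, from 1338 to 2258 in 32 and from 1437 to 2198 in T2, the filter in every library lowered them to 565 in 16-6, 740 in 32, 940 in T2 and 859 (from 1412) for 16-6 against 32, and without the fold limit they were 7610 in 16-6, 8428 in 32, 9127 in S8, 7932 in T2, 8265 for 16-6 against 32 and 12109 among the lines. With a fit of R1, 16-6 and 32 alone, 2255 genes were called among lines, against 4720. Differences that were not called were not followed through the alternatives. Dividing each library by its own total moved the median of all genes to -0.31 in 32, -0.15 in S8, 0.07 in T2 and 0.21 for 16-6 against 32. In these comparisons it called 20, 12, 7 and 19 collagens, beside 12.9%, 16.9%, 11% and 12.7% of all genes.

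Same-numbered libraries did not deviate together (correlations of -0.097, 0.001 and 0.028), so the numbers were not taken to pair them. With a replicate block on R1, 16-6 and 32, 10 collagens were called in 16-6, 17 in 32, 18 between them and 19 among the 3 lines. The shares of all genes were 7.19%, 9.94%, 10.5% and 16.6%. S8 and T2 have 1 library each and no replicate check, and 3 residual degrees of freedom set the precision of all fits. Col4a3 and Col4a4, at up to 3 and 5 fragments, were below the depth needed for a comparison.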
